A study of Mus musculus with 12 samples.

Results

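Expression of 9 genes of fibroblast growth factor (FGF) signalling was followed in immortalized murine brown adipocytes transduced with an empty vector or with tSema4B, the truncated form of semaphorin 4B that stands for its shed ectodomain. The genes were taken by their symbols from the table of 48321 genes. They are the ligand genes Fgf2, Fgf7, Fgf10 and Fgf21, the receptor genes Fgfr1 and Fgfr2, and the feedback and target genes Spry1, Spry2 and Etv5. Of these, 8 passed the filter on low values and were tested, and Fgf10 did not. A further 87 genes with known roles in the pathway were listed by role, 85 of which are in the table and 60 of which were tested.

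FGFs are secreted ligands that bind receptor tyrosine kinases together with heparan sulfate on the cell surface. The activated receptor recruits adaptors that switch on RAS and the ERK kinases, and ERK signalling in turn induces Sprouty (Spry) proteins, which damp the pathway, and ETS transcription factors such as Etv5. In fat, Fgf10 and the Fgfr2 splice form that binds it are known for their role in preadipocytes, Fgf2 and Fgf7 are products of stromal cells, and Fgf21 is a hormone that needs the co-receptor β-Klotho (Klb) beside Fgfr1.

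The cells came from interscapular brown fat of newborn wildtype C57BL/6J origin, and the paper's methods name 1 newborn mouse as the source. They were immortalized as preadipocytes with the SV40 large T antigen, and were transduced with either the empty pLEX vector or the tSema4B construct. All 4 groups of 3 libraries therefore share the large T antigen and a lentiviral vector, and 1 stably transduced line stands for each construct. Differentiation ran for 8 days, first in medium with IBMX, rosiglitazone, dexamethasone, insulin and triiodothyronine and then in maintenance medium with insulin and triiodothyronine. Cells were then kept in serum-free medium and left unstimulated or given 2 μM norepinephrine (NE), the transmitter that activates brown fat, for 6 h. The replicates are described as technical in the series text, so the p-values cover the spread between these libraries and not that between transduced lines.

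Between 2000780 and 5409583 reads were counted on genes per library, and the vector libraries were the deeper ones in both conditions. Sema4b itself averaged 116797 normalized counts in unstimulated vector cells against 281514 in tSema4B cells, and 74266 against 234276 after NE. The vector libraries thus held abundant Sema4b reads themselves, with 106135 to 131764 reads per unstimulated library. The comparison is one of lower with higher Sema4b read counts. Counts per gene do not tell reads of the construct from those of the endogenous gene, and the source of the reads in vector libraries was not tested. Of 12 adipocyte markers, 12 were called lower in tSema4B cells in both conditions, where 7.39% of all tested genes were called lower without NE and 11.2% after NE. Their summed level lay between 42283 and 48662 in unstimulated vector libraries and between 7372 and 10121 in unstimulated tSema4B libraries, and after NE between 56340 and 67814 against 11429 to 12973, with Ucp1 at 0 in every unstimulated tSema4B library. Of 14 preadipocyte and fibroblast markers tested, 10 were called higher in tSema4B cells without NE, 11 were called higher after NE and none was called lower in either condition. The shares of all tested genes called higher were 5.64% without NE and 9.79% after NE. The sums of all 16 markers of that list ran from 29015 to 29878 in vector and from 54192 to 62899 in tSema4B cells without NE, and from 22710 to 25808 and from 48354 to 52439 after NE. Macrophage markers summed to at most 24.6 and endothelial markers to at most 23.3 in any library, and Adgre1, Ptprc, C1qa, C1qb, Mrc1, Kdr, Tie1 and Cldn5 were at 0 in all groups. Csf1r, the one macrophage marker that passed the filter, did so through NE-treated libraries alone and shares 873 exon bases with Hmgxb3 on the opposite strand. Its means were 1.37 and 11.5 normalized counts in unstimulated and NE-treated vector cells and 1.31 and 15.8 in tSema4B cells. NE raised 5 of 7 tested response genes in vector and 3 of 7 in tSema4B cells, where 6.82% and 3.68% of all tested genes were called higher. Each member result between the lines stands beside this shift of the markers, and the part of the markers in it was not tested. In bulk RNA, fewer cells of a type and less RNA per cell cannot be told apart.

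Sequences of the 250 bases before the RefSeq start (GRCm38.p6) were searched on both strands for an ETS core (CCGGAA), a core of the cAMP response element (TGACG) and an AP-1 site (TGANTCA). These letters occur in 12.0%, 17.8% and 6.75% of 32851 promoter windows of the same length. Windows of 8 of the 9 genes were found, and Fgfr1 was not matched. Those of Fgf7 and Spry2, whose levels differed between the lines, and that of Fgf21, which holds the cAMP response element core, are shown 5′ to 3′ on the strand of the gene, with the match in capitals.
Fgf7, chr2:126034408-126034657, plus strand: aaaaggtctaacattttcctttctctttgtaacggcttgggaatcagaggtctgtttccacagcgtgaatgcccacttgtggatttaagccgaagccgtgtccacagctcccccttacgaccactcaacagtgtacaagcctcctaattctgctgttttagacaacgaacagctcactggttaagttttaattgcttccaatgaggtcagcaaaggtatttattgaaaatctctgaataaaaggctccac
Spry2, chr14:105896820-105897069, minus strand: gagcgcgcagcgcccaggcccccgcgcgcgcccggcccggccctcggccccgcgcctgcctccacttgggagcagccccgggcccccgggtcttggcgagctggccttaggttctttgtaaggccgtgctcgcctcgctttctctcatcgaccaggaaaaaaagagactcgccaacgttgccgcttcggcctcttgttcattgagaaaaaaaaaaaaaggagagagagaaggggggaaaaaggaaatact
Fgf21, chr7:45615491-45615740, minus strand: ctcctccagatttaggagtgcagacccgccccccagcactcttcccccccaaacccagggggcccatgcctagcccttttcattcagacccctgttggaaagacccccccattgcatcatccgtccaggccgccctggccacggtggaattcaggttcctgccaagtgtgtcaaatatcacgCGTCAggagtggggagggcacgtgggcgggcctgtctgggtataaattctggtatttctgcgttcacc
The window of Fgf7 has a GC content of 43.6%, against 62.4% for Spry2 and 59.6% for Fgf21, and neither Fgf7 nor Spry2 holds any of the 3 motifs. In Fgf21 the core lies 68 to 64 bases before the start and reads on the opposite strand. Fgf2 holds the same core in 2 places, at 140 to 136 and at 6 to 2 bases before its start, and the windows of the other matched genes hold none of the 3.

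Among the ligands, Fgf7 was the one with a clear level in every library. Fgf7 (ENSMUSG00000027208.14, chr2:126034658-126091185, plus strand, GRCm38), a stromal growth factor also called keratinocyte growth factor, was at 180.3, 127 and 134 normalized counts in the unstimulated vector libraries and at 265, 286 and 222 in the unstimulated tSema4B libraries. After NE the values were 216, 177 and 251 in vector and 359, 353 and 321 in tSema4B cells. Within each condition no vector library reached a tSema4B library, and the NE-treated tSema4B libraries were the highest of all. Means ± SD (n = 3 in every group) were 147 ± 29.0 and 258 ± 32.8 without NE, so that Fgf7 rose by 0.81 on the log2 scale (SE 0.160, limma adjusted p = 0.00116). For NE-treated cells they were 214 ± 37.1 and 344 ± 20.5, a rise by 0.69 (SE 0.160, adjusted p = 0.00334). NE itself raised Fgf7 in vector cells by 0.54 on the log2 scale (adjusted p = 0.0295), although the groups overlapped, and this call was lost under 5 of 18 alternatives (adjusted p from 0.0134 to 0.180), namely with no filter on low values (0.0565), without vector unstimulated replicate 2 (adjusted p = 0.139) or 3 (0.109) and without vector NE replicate 1 (0.0826) or 3 (0.180). In tSema4B cells the log2 difference with NE was 0.42 (95% CI 0.09 to 0.76, adjusted p = 0.124), and the interaction of tSema4B and NE was -0.12 (95% CI -0.59 to 0.35, adjusted p = 0.905).

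Fgf21 (ENSMUSG00000030827.5, chr7:45613886-45615490, minus strand), the metabolic hormone of the family, was represented by few reads. They numbered 7, 10 and 10 in unstimulated vector libraries, 4, 2 and 0 in unstimulated tSema4B libraries, 15, 20 and 27 in NE-treated vector libraries and 9, 7 and 1 in NE-treated tSema4B libraries. The normalized counts were 7.60, 8.41 and 10.9 against 4.77, 3.09 and 0 without NE, and 10.1, 11.9 and 17.7 against 9.65, 6.63 and 1.32 after NE. No tSema4B library reached a vector library of its condition, but the differences did not pass the test, with log2 fold changes of -1.78 (95% CI -3.32 to -0.25, adjusted p = 0.122) and -1.27 (95% CI -2.81 to 0.26, adjusted p = 0.243). Fgf21 passed the filter through vector libraries alone. With NE its log2 difference was 0.49 in vector (95% CI -1.05 to 2.03, adjusted p = 0.756) and 1.00 in tSema4B cells (95% CI -0.54 to 2.54, adjusted p = 0.498), so at this depth neither a rise nor a fall with NE was detectable.

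Fgf2 (ENSMUSG00000037225.13, chr3:37348346-37410108, plus strand), basic FGF, was low and varied among libraries of the same group. The normalized counts were 27.1, 11.8 and 25.1 in unstimulated vector, 15.5, 3.09 and 17.8 in unstimulated tSema4B, 16.8, 2.37 and 11.1 in NE-treated vector and 0, 0 and 26.4 in NE-treated tSema4B libraries. The groups overlapped in every comparison. The log2 fold change of tSema4B against vector was -0.96 without NE (adjusted p = 0.588) and -1.58 after NE (95% CI -3.60 to 0.45, adjusted p = 0.276). The latter value depended on how the libraries at 0 were treated, since the group means after NE were close (10.1 ± 7.27 and 8.81 ± 15.3), and it was -0.31 with a pseudocount of 10, -0.33 with edgeR and -0.22 with DESeq2. NE-treated tSema4B replicate 3 held all 20 reads of its group, and without it the value after NE was -3.17 (adjusted p = 0.00907, and from 0.00907 to 0.940 over 17 alternatives). Of the exon bases of Fgf2, 895 also belong to Nudt6, on the opposite strand, or to Gm43439, and the strand setting of the counting is not given in the sources used here, so reads of Fgf2 and Nudt6 may not have been told apart. Fgf10 (ENSMUSG00000021732.14, chr13:118669791-118792115), a ligand of the Fgfr2 splice form found on epithelial and preadipocyte cells, had 0 to 4 reads per library and at most 4.11 normalized counts. It was not tested, and no difference could be detected at such counts. Other ligands gave no more. None of the 14 other secreted FGF genes passed the filter, 7 of them had no read in any library, and the most reads of any in a library were 12. Of 4 intracellular FGF homologous factors, 3 had no read.

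Fgfr1 was higher with tSema4B in both conditions, and per kb of exons its mean was above those of Fgfr2 and Fgfr3 in every group. Fgfr1 (ENSMUSG00000031565.18, chr8:25513654-25575718, plus strand) was at 236, 216 and 253 normalized counts in unstimulated vector, 336, 393 and 355 in unstimulated tSema4B, 178, 200.3 and 238 in NE-treated vector and 311, 282 and 301 in NE-treated tSema4B libraries. Within each condition all tSema4B libraries were above all vector libraries. The means rose from 235 ± 18.3 to 361 ± 29.0 without NE (log2 difference 0.62, SE 0.133, adjusted p = 0.00254) and from 205 ± 30.1 to 298 ± 14.7 after NE (log2 fold change 0.54, SE 0.133, adjusted p = 0.00516). Both calls were kept under the 18 alternatives that refit the gene, and both are lost where a fold threshold of 1 in log2 is required as well. NE gave log2 differences of -0.20 in vector (adjusted p = 0.391) and -0.27 in tSema4B cells (adjusted p = 0.254), and in the latter the NE-treated libraries lay below the unstimulated ones.

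Fgfr2 (ENSMUSG00000030849.18, chr7:130162451-133123350, minus strand), the receptor for Fgf7 and Fgf10 in one of its splice forms, was lower than Fgfr1 and less even. The normalized counts were 28.2, 58.0 and 47.9 in unstimulated vector, 47.7, 17.0 and 46.5 in unstimulated tSema4B, 13.4, 42.1 and 45.2 in NE-treated vector and 0, 24.6 and 7.93 in NE-treated tSema4B libraries. The NE-treated tSema4B libraries held 0, 26 and 6 reads and were the lowest as a group, but one of them lay above a vector library. Fgfr2 was called lower with tSema4B after NE (log2 fold change -2.32, SE 0.760, adjusted p = 0.0328) and was not called without NE (-0.34, 95% CI -1.92 to 1.24, adjusted p = 0.831). The call after NE did not hold under 7 of 17 alternatives, whose adjusted p ranged from 0.00223 to 0.220 in all. Without NE-treated tSema4B replicate 1 the log2 fold change was -1.02 (adjusted p = 0.213), without vector NE replicate 2 or 3 the adjusted p was 0.118 or 0.129, edgeR gave -1.57 (adjusted p = 0.0670) and DESeq2 -1.62 (adjusted p = 0.220). The others were no filter on low values (0.0937) and a model of only the 6 libraries compared (0.0749). With NE in tSema4B cells Fgfr2 differed by -2.50 on the log2 scale (95% CI -4.08 to -0.93, adjusted p = 0.0528), which was a call under 4 of 17 alternatives, among them without tSema4B unstimulated replicate 2 (0.0444) and without tSema4B NE replicate 2 (0.00456), over a range of 0.00456 to 0.304. The difference between the conditions, tested as the interaction, was -1.99 (95% CI -4.22 to 0.25, adjusted p = 0.552). Counts per gene do not separate the splice forms of either receptor.

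**Figure D1:**
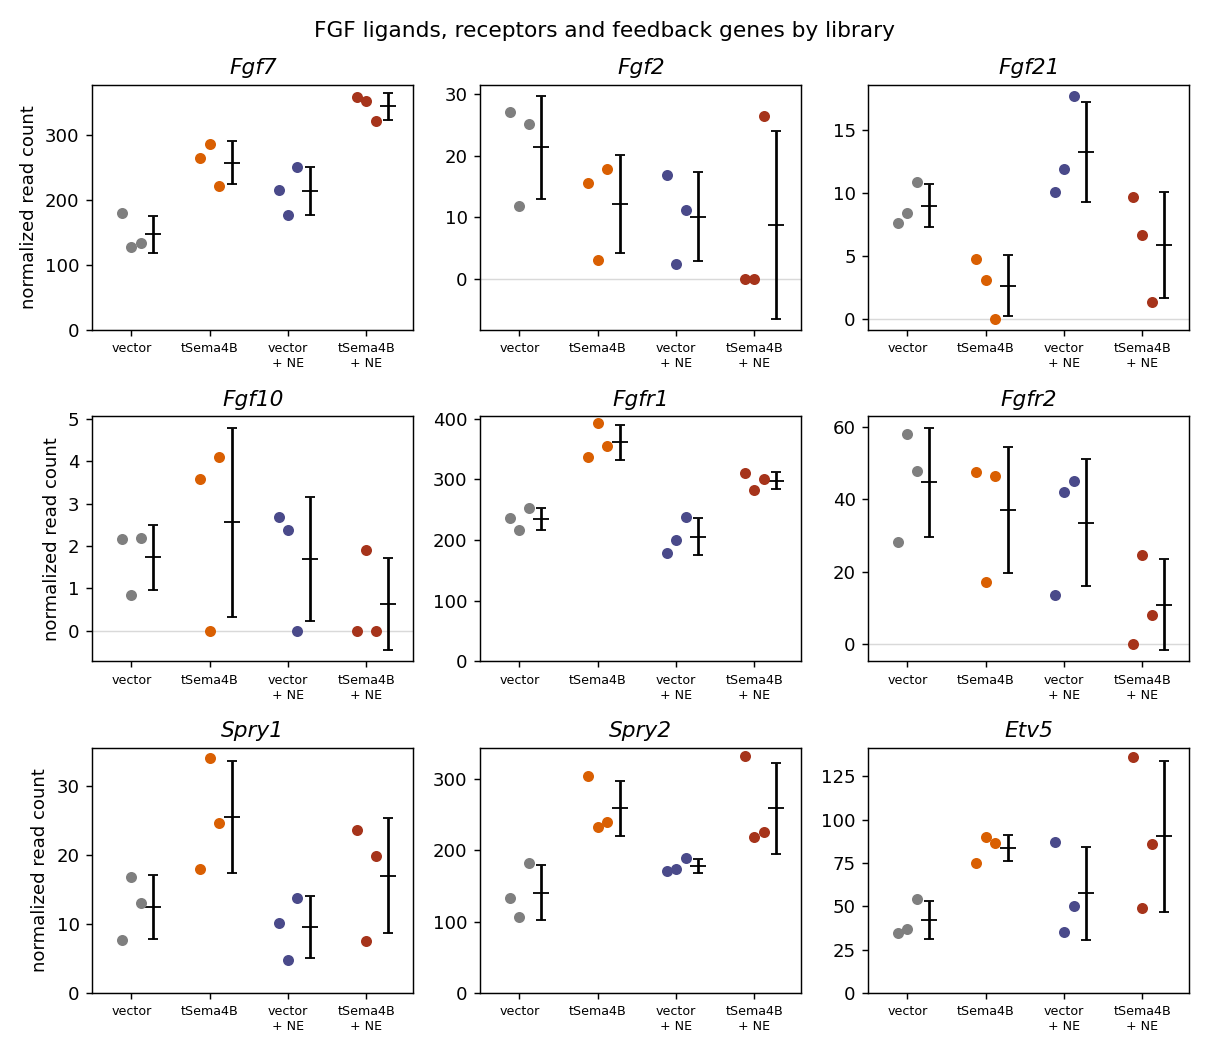
Normalized read counts (vertical axis, linear) of the 9 FGF genes in the 12 libraries. Dots are libraries and black bars are group means ± SD (n = 3). Fgf7 and Fgfr1 sit higher in tSema4B than in vector libraries without and after NE, with Fgf7 at 321 to 359 in NE-treated tSema4B libraries, while Fgf10 stays at or below 4.11 everywhere.

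The feedback gene Spry2 rose with tSema4B in unstimulated cells. Spry2 (ENSMUSG00000022114.5, chr14:105891947-105896819, minus strand), an intracellular inhibitor of receptor tyrosine kinase signalling, was at 134, 106 and 182 normalized counts in unstimulated vector and at 304, 234 and 239.6 in unstimulated tSema4B libraries. After NE it was at 171, 174 and 189.9 in vector and at 332, 219 and 226 in tSema4B libraries. The tSema4B libraries again lay above the vector libraries in both conditions. Without NE the means were 140.5 ± 38.4 and 259 ± 39.0 (log2 difference 0.90, SE 0.188, adjusted p = 0.00200). With NE they were 178 ± 10.1 and 259 ± 63.7 (log2 fold change 0.51, 95% CI 0.12 to 0.90, adjusted p = 0.0572), which did not pass the test as run but did under 8 of 18 alternatives (adjusted p from 0.0239 to 0.271), among them without tSema4B NE replicate 2 (0.0445). The call without NE was kept under the 18 refits but is lost with the added fold threshold of 1 in log2.

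Etv5 (ENSMUSG00000013089.15, chr16:22381309-22439719, minus strand), an ETS factor induced by FGF and ERK signalling, was at 34.8, 37.0 and 54.5 normalized counts in unstimulated vector and at 75.1, 89.7 and 86.3 in unstimulated tSema4B libraries, with no overlap. In NE-treated cells the values were 87.3, 35.0 and 50.4 in vector and 136, 49.2 and 85.9 in tSema4B libraries, and these groups overlapped. The log2 fold change was 1.00 without NE (SE 0.334, adjusted p = 0.0517), just outside the threshold, with adjusted p from 0.0207 to 0.167 over 18 alternatives of which 9 gave a call, among them without vector unstimulated replicate 3 (0.0420). After NE it was 0.62 (95% CI -0.07 to 1.32, adjusted p = 0.203). Spry1 (ENSMUSG00000037211.12, chr3:37639947-37644598, plus strand), the other Sprouty gene of the set, was low. Its means were 12.5 ± 4.63 and 25.5 ± 8.11 in vector and tSema4B cells without NE and 9.52 ± 4.53 and 17.0 ± 8.37 after NE, with log2 fold changes of 0.99 (95% CI -0.09 to 2.07, adjusted p = 0.236) and 0.74 (95% CI -0.34 to 1.82, adjusted p = 0.341). Gm42922, on the opposite strand, overlaps 710 bases of the Spry1 exons. None of the 3 feedback genes was called with NE in either line, and the log2 differences of Spry2 with NE were 0.38 in vector (adjusted p = 0.231) and -0.02 in tSema4B cells (adjusted p = 0.978).

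Counted over the 8 tested genes, 3 (Fgf7, Fgfr1 and Spry2) were called higher in tSema4B than in vector cells without NE and 0 were called lower, where 5.64% of all 11998 tested genes were called higher and 7.39% lower. After NE 2 (Fgf7 and Fgfr1) were called higher and 1 (Fgfr2) lower, beside 9.79% and 11.2% of all tested genes. For NE in vector cells 1 (Fgf7) was called higher and 0 lower, against 6.82% and 4.78% of all genes. For NE in tSema4B cells limma called 0 genes of the set, where 3.68% of all genes were called higher and 2.58% lower. Of these, 2 had an unadjusted p under 0.05, edgeR and DESeq2 called 0, and a fit with the replicate number as a block called 1. The interaction of tSema4B and NE was called for 0 of the 8 (0 at an unadjusted p under 0.05, and 0 by edgeR and by DESeq2), against 0.0250% of all genes. The median log2 fold change over the 8 genes was 0.72 for tSema4B without NE and 0.53 after NE, where the medians over all tested genes were -0.0025 and -0.010. These counts and medians describe the genes that passed the filter and are not a test of the set.

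**Figure D2:**
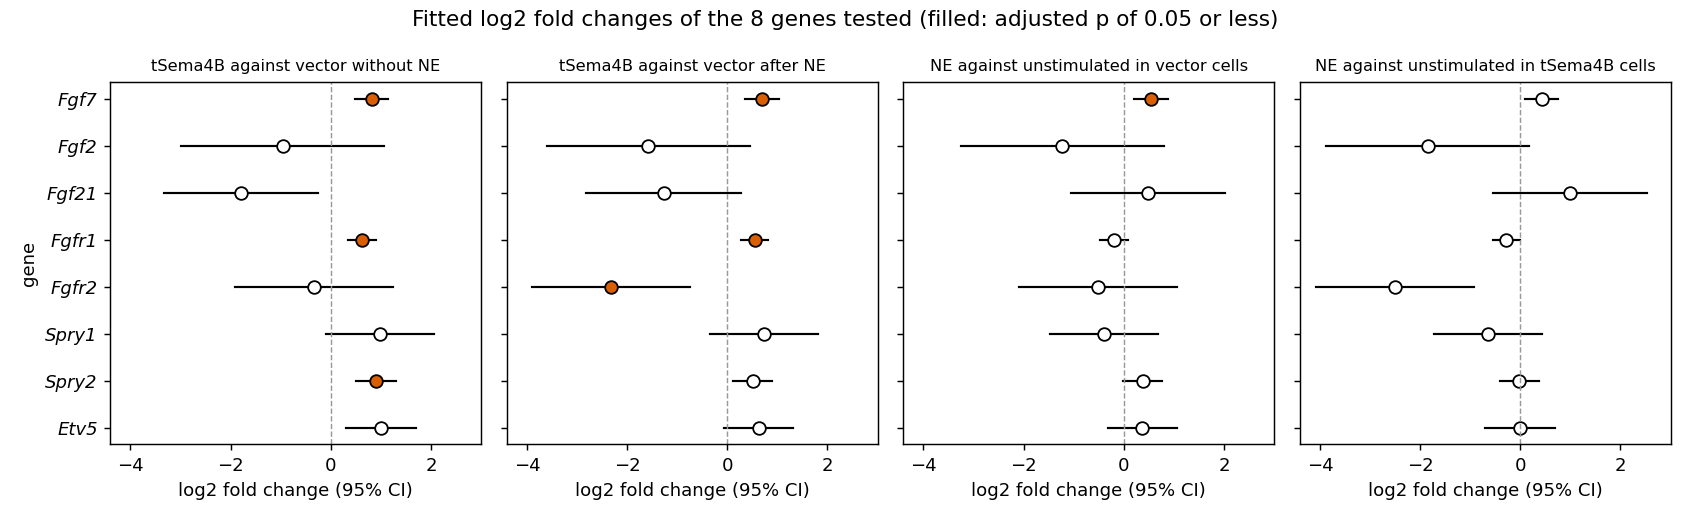
Fitted log2 fold changes (horizontal axis) with 95% confidence intervals for the 8 tested genes in the 4 comparisons. Filled circles passed an adjusted p of 0.05. Fgf7 and Fgfr1 lie to the right of 0 in both comparisons of tSema4B with vector, and the intervals of Fgf2, Fgf21 and Fgfr2 are the widest.

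The comparisons of the lines without and after NE share no library. Fgf7, Fgfr1, Spry1, Spry2 and Etv5 were fitted above 0 in both and Fgf2, Fgf21 and Fgfr2 below 0 in both. Among the latter, Fgf21 passed the filter through vector libraries alone, and the sign of Fgf2 after NE belongs to group means that were nearly equal. Such agreement was common, since 80.0% of the 60 other pathway genes and 69.9% of all tested genes had the same direction in both. The direction of Fgfr2 without NE turned to 0.13 when unstimulated tSema4B replicate 2 was left out. Both line comparisons use the same 2 transduced lines, so a property of either line would appear in each.

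Levels can be set beside one another only per length of transcript, as normalized counts per kb of merged exons. In unstimulated vector cells Spry2 was at 67.3 ± 18.4 per kb, Fgf7 at 45.3 ± 8.92, Fgfr1 at 23.8 ± 1.85, Etv5 at 10.3 ± 2.63 and Fgf21 at 9.43 ± 1.80. Below them came Fgfr2 at 4.33 ± 1.47, Spry1 at 4.30 ± 1.59, Fgf2 at 3.14 ± 1.23 and Fgf10 at 0.38 ± 0.17 per kb. Spry2 and Fgf7 overlapped, as did Etv5 with Fgf21 and Fgfr2 with Spry1 and Fgf2, whereas Fgfr1 and Fgf10 were separate from their neighbours. Spry2, Fgf7, Fgfr1 and Etv5 were the first 4 in this order in every group. In NE-treated tSema4B cells they were at 124 ± 30.5, 106 ± 6.31, 30.2 ± 1.49 and 22.0 ± 10.6 per kb, and Fgfr1 overlapped with Etv5 there and in NE-treated vector cells. The merged exons of both receptor genes cover many isoforms, which lowers their value per kb.

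Among the other receptor and co-receptor genes, Klb (ENSMUSG00000029195.10, chr5:65348314-65384007), which encodes β-Klotho, differed most. It was at 163, 145 and 145 normalized counts in unstimulated vector and 11.9, 9.28 and 28.7 in unstimulated tSema4B libraries, and at 211, 162 and 136 against 31.1, 30.3 and 35.7 after NE. Each vector library held several times the level of any tSema4B library of its condition. Klb fell by 3.26 on the log2 scale without NE (adjusted p = 1.03e-07) and by 2.33 after NE (adjusted p = 9.90e-06). NE was followed by a higher level in tSema4B cells (log2 fold change 1.07, adjusted p = 0.0391) and by no called change in vector cells (0.15, adjusted p = 0.838), but the interaction did not pass the test (0.93, adjusted p = 0.475). Of the pair of genes whose products bind Fgf21, Fgfr1 was thus higher and Klb lower with tSema4B in both conditions. Fgfr3 averaged 15.7, 20.8, 13.3 and 24.3 normalized counts and the decoy receptor gene Fgfrl1 81.4, 53.4, 68.6 and 47.0 in unstimulated vector, unstimulated tSema4B, NE-treated vector and NE-treated tSema4B cells, and neither was called in any comparison. Per kb of exons the mean of Fgfrl1 was above that of Fgfr1 in vector cells (29.3 against 23.8 unstimulated and 24.7 against 20.8 after NE) and below it in tSema4B cells (19.2 against 36.6 and 16.9 against 30.2), an order that was not tested. Fgfr4 had 3 reads and Kl 4 reads, each in a single library, and they were not tested.

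Heparan sulfate proteoglycans, whose chains hold FGFs at the cell surface, and the enzymes that make, modify or cleave these chains were the next list. Of 20 tested, 4 were called higher with tSema4B without NE (Sdc1, Sdc2, Sdc4 and Agrn) and 7 after NE (Sdc1, Sdc2, Gpc4, Gpc6, Hspg2, Agrn and Glce), and none was called lower in either condition, where 5.64% and 9.79% of all tested genes were called higher. Sdc1, syndecan 1, averaged 376 and 516 without NE and 924 and 1345 after NE in vector and tSema4B cells (log2 fold changes 0.45 and 0.54, adjusted p = 0.00462 and 0.000667). NE raised Sdc1 in both lines, by 1.29 and 1.38 on the log2 scale (adjusted p = 3.79e-08 and 1.50e-08). NE also raised Sdc4 and lowered Sdc2 in both lines, while Gpc4, Gpc6, Hspg2 and Glce were called lower with NE in vector cells.

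Of 5 tested proteins that bind FGFs or their receptors outside the cell, 1 was called higher with tSema4B without NE and 2 after NE, beside 5.64% and 9.79% of all tested genes. Ncam1, an adhesion molecule that interacts with Fgfr1, was called in both conditions (log2 fold changes 0.67 and 0.74). Flrt3, a membrane protein that binds FGF receptors, had 26, 10 and 13 reads in unstimulated vector, 46, 15 and 34 in unstimulated tSema4B, 9, 1 and 8 in NE-treated vector and 30, 15 and 12 in NE-treated tSema4B libraries. It was higher with tSema4B after NE (log2 fold change 2.31, adjusted p = 0.00702) and lower with NE in vector cells (-1.97, adjusted p = 0.0315).

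Within the cell, of 20 tested adaptors and members of the RAS and ERK chain, 1 was called lower with tSema4B without NE, and after NE 3 were called higher (Frs2, Shc1 and Gab1). The one without NE was Hras, at 84.7, 84.9 and 98.0 normalized counts in vector and 54.8, 52.6 and 24.6 in tSema4B libraries (log2 fold change -1.08, adjusted p = 0.0236). Of 12 tested other feedback and ETS genes, 1 was called higher in each condition. Without NE this was Spred1, an inhibitor of RAS signalling related to the Sprouty proteins, which rose from 82.3 to 169 normalized counts (log2 fold change 1.09, adjusted p = 0.00279), but its log2 fold change after NE was 0.02 (adjusted p = 0.972), with an interaction of -1.08 (adjusted p = 0.242). After NE it was Cnpy2 (log2 fold change 0.40, adjusted p = 0.0447). Over all 60 other pathway genes, 6 were called higher and 2 lower with tSema4B without NE, 13 and 3 after NE, 2 and 9 with NE in vector cells, and 4 and 2 with NE in tSema4B cells. The shares of all tested genes called higher and lower were 5.64% and 7.39%, 9.79% and 11.2%, 6.82% and 4.78%, and 3.68% and 2.58% in the same order. The interaction was called for 0 of them by limma, edgeR and DESeq2, and 7 had an unadjusted p under 0.05.

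**Figure D3:**
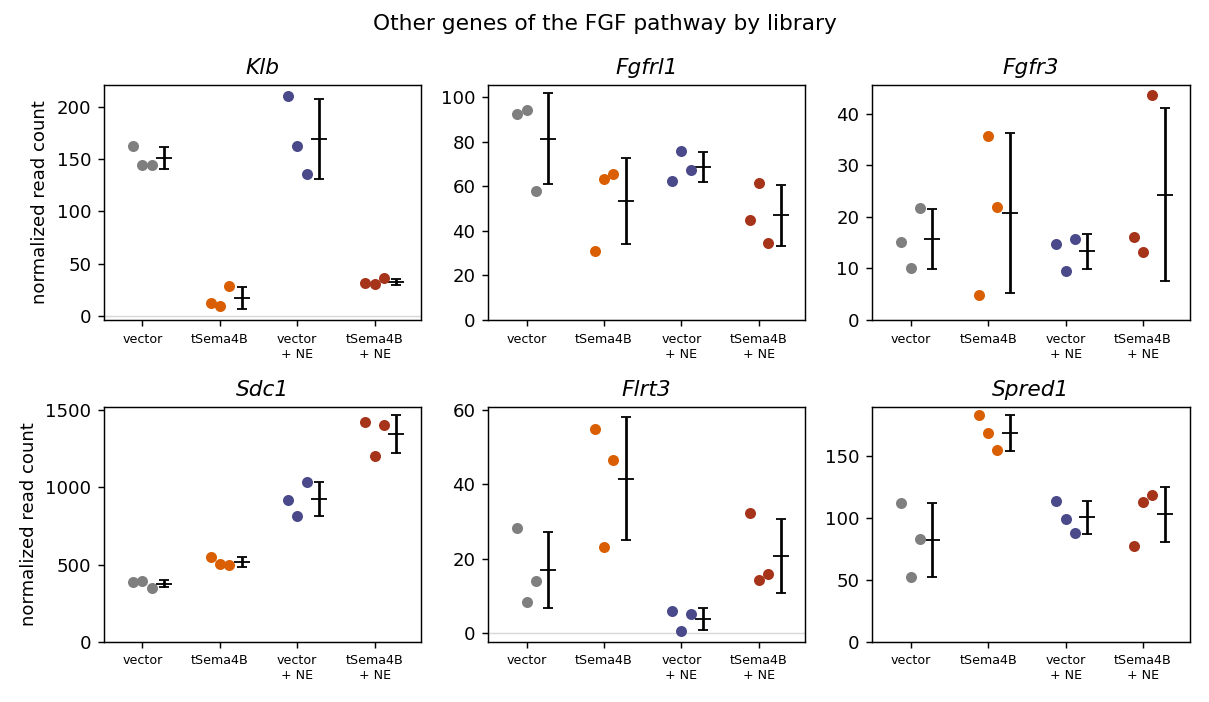
Normalized read counts (vertical axis, linear) of 6 other FGF pathway genes in the 12 libraries, with group means ± SD (n = 3) as black bars. Klb is at 136 to 211 in NE-treated vector and at 30.3 to 35.7 in NE-treated tSema4B libraries, and Sdc1 is higher with NE in both lines.

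**Figure D4:**
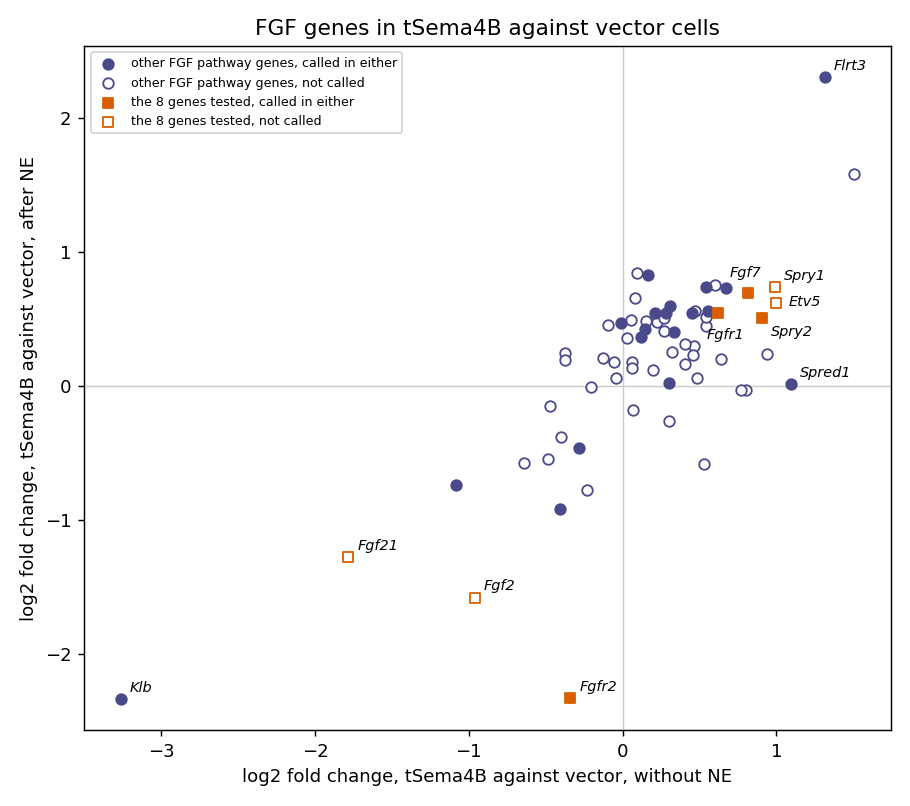
Log2 fold change of tSema4B against vector without NE (horizontal axis) and after NE (vertical axis) for the 8 tested genes (squares) and 60 other pathway genes (circles), filled where either comparison passed an adjusted p of 0.05. Fgf7, Fgfr1, Spry2, Spry1 and Etv5 fall to the upper right of the origin and Fgf2, Fgf21, Fgfr2 and Klb to the lower left.

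Genes with the pattern most like each member were listed by Pearson correlation of log2 normalized counts over the 12 libraries, among genes with a mean of at least 50 normalized counts. These values are descriptions without a test, since the points share 2 lines and 2 conditions and each listed gene was picked as the highest among many. For Fgf7 the first 3 were Bicc1 (0.942), Pak1 (0.940) and Tulp3 (0.935). For Fgfr1 they were Mmp2 (0.967), Col18a1 (0.956) and Hspa2 (0.955), and for Spry2 Cd63-ps (0.943), Ddr2 (0.936) and Ifitm3 (0.934). Etv5 was most like Slc39a6 (0.916), Larp7 (0.872) and H13 (0.857), and Spry1 most like Fnip1 (0.920), Ephb3 (0.878) and Fam43a (0.875). The low genes Fgfr2, Fgf21 and Fgf2 were most like Dynlt1-ps1 (0.949), Sidt2 (0.944) and Rhob (0.885). Each of these members had few reads and a library at 0, on which such values can depend. Between members the correlation was 0.78 for Spry2 with Fgf7 and for Spry2 with Etv5, and 0.75 for Fgfr1 with Spry1.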

How the data were processed

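RNAseq data of 12 libraries (SMART-Seq2 cDNA, Nextera XT, single-end reads) were used, 3 in each of 4 groups taken from the labels. Per the submitters' processing notes and the paper's methods, the authors aligned reads with STAR 2.7.9a to the mouse genome (GRCm38.p4), counted them per gene with HTSeq and scaled them with DESeq2. The signal the authors deposited is a normalized read count per gene, in which 100% of values were multiples of the value of 1 read (tolerance 0.01), which gave back the whole reads. The annotation, strand setting and treatment of multiply mapped reads are not given in the sources used here. All value columns were used.

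A pseudocount of 1 was added before taking log2, which shrinks the fold changes of low genes whose libraries agree, while for genes with some libraries at 0 (Fgf2, Fgfr2) the fitted value can exceed the fold of the group means. A normalized count of 10 or more in 3 or more of the 12 libraries was required (11998 genes), and limma 3.58.1 fitted 1 model of the 4 groups in R 4.3.3 with variances that follow a trend on abundance. Two-sided p-values were adjusted (Benjamini-Hochberg) over every gene tested, and calls were made at an adjusted p up to 0.05. A fold threshold on top of this (1 or more in log2) was run as an alternative. With 3 libraries against 3, an exact two-sided permutation test can reach no p under 0.1. The fit was tested on simulated data. Positions and exon lengths are those of the GENCODE annotation of GRCm38, and promoter windows are those of RefSeq. Depth lay between 2000780 and 5409583 reads on genes, and counting error covers reads, which are not independent molecules after PCR.

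The other settings tried were pseudocounts of 0.5 and 10, no filter and one at 50 normalized counts, scaling of libraries to equal totals, by TMM or by quantiles, edgeR 4.0.16 and DESeq2 1.42.0 on whole reads, a model of only the 6 libraries compared, a replicate block, reads thinned to 2000780, and each library left out in turn. The 9 genes and the lists were chosen with earlier results of these data known. Beyond the 9 genes, the text names the receptors and co-receptors, pathway genes called in a comparison of 2 groups that changed by 1 or more in log2, the 3 genes most correlated with each tested gene, and Sema4b. Other genes are named where they make up a count, and these and the examples were chosen after their values were seen. Some genes of the adaptor list are counted in the totals but not reported here by name. The adipocyte and fibroblast marker lists hold genes that the study also examined in these libraries.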

Additional observations from a re-analysis of the deposited data

How the results depend on the processing

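Calls at low read numbers limit these results, since Fgf2, Fgf21, Fgf10, Fgfr2 and Spry1 rest on few reads per library. Fgf7, Fgfr1 and Spry2 without NE and Fgf7 and Fgfr1 after NE kept their calls under the 18 alternatives that refit the gene, but each of these 5 calls is lost with an added fold threshold of 1 in log2. The cause was not tested for any of the changes below. A fold threshold of 1 in log2 beside the adjusted p changed the counts most. It left 0 of the 8 tested genes called for tSema4B without NE (against 3), 1 after NE (against 3) and 0 for NE in vector cells (against 1). Of the 60 other pathway genes tested it left 3, 2, 2 and 2 in the 4 comparisons (against 8, 16, 11 and 6). Of all 11998 tested genes it left 133 higher and 325 lower with tSema4B without NE, and 244 and 447 after NE. For NE it left 199 higher and 117 lower in vector cells, and 157 and 91 in tSema4B cells. With no filter on low values the pathway counts were 5 without NE and 6 for NE in vector cells, and Fgf7 was not called for NE in vector cells (0). For NE in tSema4B cells, where 0 of the 8 tested genes were called, thinned reads gave 1 and a model of only the 6 libraries gave 3 pathway genes.

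Leaving out each library in turn gave 5 to 8 pathway genes without NE, 2 to 5 of the 8 tested genes and 10 to 16 pathway genes after NE, 0 to 1 and 6 to 9 for NE in vector cells, and 0 to 1 and 3 to 5 for NE in tSema4B cells. After NE the 5 calls came without tSema4B NE replicate 2, where Etv5 was also called (1.00, adjusted p = 0.0420), and the 10 pathway calls without vector NE replicate 2. Directions turned only for log2 fold changes that were not called. With a library left out, Fgfr2 lay between -0.63 and 0.13 without NE and between -0.81 and 0.024 for NE in vector cells. For NE in tSema4B cells Spry2 lay between -0.21 and 0.10 and Etv5 between -0.35 and 0.37. The interaction ranges were -2.21 to 0.18 for Fgf2, -0.27 to 0.0012 for Fgf7, -0.25 to 1.16 for Fgf21, -0.17 to 0.036 for Fgfr1 and -0.63 to 0.22 for Spry1. For NE in tSema4B cells Spry2 (-0.017) was 0.0083 with libraries rescaled to the same total and 0.0024 with edgeR. Etv5 (-0.0028) was 0.0080 with a pseudocount of 10, 0.022 at the same total, 0.0030 with TMM, 0.0013 after quantile normalization, 0.12 with edgeR, 0.11 with DESeq2 and 0.13 with thinned reads. The Fgf2 interaction (-0.62) was 0.22 with a pseudocount of 10 and 0.44 with edgeR.

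A check was made of whether equal replicate numbers pair the libraries. Over 18 pairs of same-numbered libraries the correlation of deviations lay between -0.047 and 0.028, and 0 passed 0.1, so they do not. With the replicate number as a block, 4, 4, 1 and 1 of the 8 tested genes and 6, 15, 10 and 5 pathway genes were called in the 4 comparisons and 0 for the interaction.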
